A study of Mus musculus with 6 samples.

Results

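The Sox and forkhead transcription factors were followed in HM1, a line of embryonic stem (ES) cells from the mouse. Members were all genes whose symbol in the platform annotation was Sox or Fox (letters a to s) with a number and, for the Fox genes, an optional letter. Sox2, a core pluripotency factor, was left out by this rule. There were 61 members with a probe set that names 1 gene, 18 Sox and 43 forkhead genes, of 19938 genes measured.

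One group of 3 samples carried mouse Prmt6 cloned into the plasmid pCAGIP.puro (Prmt6 overexpression), and the other group of 3 carried the empty plasmid (control). Both groups were transfected with a lipid reagent, selected for 3 days with 1 ug/ml puromycin, and grown in 15% serum with LIF at 1000 U/ml, so that both had been selected and both were held in the cytokine that keeps mouse ES cells undifferentiated. Prmt6 encodes an enzyme of the nucleus that methylates arginines, among them those of histones. The samples were populations of transfected cells, and the labels do not state how much of each population expressed the plasmid or whether replicates came from separate cultures. P-values are therefore relative to a spread between samples that may be only technical. Each sample was hybridised to 1 Affymetrix array, and with 6 arrays precision is limited by their number.

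Sox proteins bind DNA through a high-mobility-group (HMG) box that bends the helix, and they fall into lettered groups of similar box sequence. They commonly act beside a partner, in ES cells the POU factor Oct4 beside Sox2. Forkhead proteins bind through a winged helix and are also lettered by similarity. FoxA proteins open compact chromatin in endoderm, FoxH1 carries Nodal signals together with Smad proteins, FoxM1 drives mitotic genes, and FoxO proteins are moved out of the nucleus when the kinase AKT phosphorylates them.

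Of the 61 members, 4 rose with the Prmt6 plasmid, 2 fell and 55 did not pass (limma, adjusted p under 0.05 over all genes). The rises were those of Sox4 (1.85-fold), Sox11 (1.725-fold), Sox17 (1.495-fold) and Foxc1 (1.41-fold), and the falls were those of Sox21 and Foxo3, which were 1.32-fold and 1.31-fold lower. Over all genes 10.3% were called, 7.05% higher and 3.25% lower, so the members' 9.84% lay near the background and is not a result about the families as a whole. The called share was 22.2% of Sox genes (4 of 18) and 4.65% of forkhead genes (2 of 43). The difference between the families was not tested. With arrays centred on their medians, 1838 genes were higher and 447 lower, against 1405 and 647 without centring, and 5 members rose and 2 fell.

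The sequences shown are those of the SoxC group, where 2 of 3 members rose, and of the FoxO genes that lay on opposite sides of 0. Each is the stretch of 150 bases just before the transcription start, from RefSeq on build GRCm38.p6, 5′ to 3′ on the gene's own strand. Capitals mark any of 8 short motifs, searched on both strands. The core promoter motifs were the TATA box with the letters TATAAA, the CCAAT box with those letters alone, and the GC box with the letters GGGCGG. The Sox core had the letters ATTGTT, the forkhead core the letters GTAAACA and the TEAD core the letters GGAATG. The AP-1 site had the letters TGACTCA and the E-box the letters CACGTG. No other motif was searched, and none of these 8 contains another.

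Sox4, chr13:28953700-28953849, minus strand: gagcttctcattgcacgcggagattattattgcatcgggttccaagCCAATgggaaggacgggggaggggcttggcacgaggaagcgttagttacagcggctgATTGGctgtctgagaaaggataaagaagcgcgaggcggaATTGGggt
Sox11, chr12:27342719-27342868, minus strand: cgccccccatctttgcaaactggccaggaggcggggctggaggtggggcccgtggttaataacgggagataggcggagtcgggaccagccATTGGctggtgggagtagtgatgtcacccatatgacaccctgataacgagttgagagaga
Sox12, chr2:152398047-152398196, minus strand: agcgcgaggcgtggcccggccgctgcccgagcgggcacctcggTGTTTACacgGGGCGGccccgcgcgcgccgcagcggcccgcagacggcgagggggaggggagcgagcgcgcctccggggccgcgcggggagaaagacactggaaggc
Foxo1, chr3:52268187-52268336, plus strand: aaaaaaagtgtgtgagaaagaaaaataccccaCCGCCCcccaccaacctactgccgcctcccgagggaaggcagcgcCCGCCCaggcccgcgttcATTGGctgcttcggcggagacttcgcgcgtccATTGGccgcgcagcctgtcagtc
Foxo3, chr10:42276696-42276845, minus strand: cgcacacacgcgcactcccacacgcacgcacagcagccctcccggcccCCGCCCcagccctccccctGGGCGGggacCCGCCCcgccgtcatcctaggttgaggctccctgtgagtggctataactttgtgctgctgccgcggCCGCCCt

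The stretch of Sox4 held 3 CCAAT boxes and that of Sox11 held 1, while that of Sox12 held none, but 1 GC box and 1 forkhead core. Foxo1 held 2 CCAAT boxes and 2 GC boxes, and Foxo3 held 4 GC boxes. The stretches differed in base composition, with 54.7% G and C in Sox4, 59.3% in Sox11 and 80.0% in Sox12. Windows from 250 bases before to 50 after the start were given for 40 of 61 members, among them 5 of the 6 called ones. In these wider windows Sox4, Sox11 and Sox12 all held a CCAAT box, and Sox11 and Sox12 a GC box. The lack of a CCAAT box in Sox12 thus holds only for the stretch shown. The called Sox21 held none of the 8 motifs in its window. The CCAAT box lay in a window of 55.0% of these members, against 41.1% of all 27025 genes with windows, and the GC box in 70.0% against 38.2%. Member windows had a median of 62.5% G and C, against 52.7% over all windows, and the part of base composition in the GC box count was not tested. For the Sox core the shares were 5.00% of members and 12.2% of all genes, and for the forkhead core they were 5.00% and 4.05%. The TATA box shares were 10.0% and 15.7%, the TEAD core 17.5% and 16.6%, the AP-1 site 5.00% and 5.95%, and the E-box 5.00% and 8.09%. A match is a description of letters and marks no bound site.

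Array values are log2 signals after the authors' robust multi-array average (RMA) processing. RMA makes the arrays' distributions alike, which hides a shift common to most genes. Array medians over all 35556 probe sets lay between 5.54 and 5.59 in overexpression and between 5.60 and 5.62 in control, without overlap of the groups. The centring on medians used these values. Over the 19938 genes compared, the medians were 5.85, 5.86 and 5.91 in overexpression and 5.87, 5.89 and 5.85 in control, with overlap. Prmt6 itself read 7.32, 7.40 and 7.33 in overexpression arrays, against 6.84, 6.58 and 7.12 in control arrays, a rise of 0.50 ± 0.13 (SE, adjusted p = 0.0406). The probe set's place relative to the cloned insert was not examined, so plasmid and endogenous transcripts are not separated. Its call was lost without overexpression replicate 1 (adjusted p = 0.0893), 2 (0.119) or 3 (0.0788), without control replicate 1 (0.116) or 2 (0.0954), and with the replicate block (0.0615). Of 15 ES cell markers, 1 rose, 3 fell and 11 did not pass (limma), a called share of 26.7%, against 10.3% of all genes. Nanog (-0.34 ± 0.068, adjusted p = 0.0153), Tdgf1 (-0.35 ± 0.072, 0.0183) and Sox2 (-0.29 ± 0.076, 0.0485) fell, and Tfcp2l1 rose (0.37 ± 0.069, 0.0111). The Nanog call ended without any 1 control array (0.0552 to 0.0766) and with the replicate block (0.0615). That of Tfcp2l1 ended without control replicate 1 (0.0594) or 3 (0.0508). The median change of the 15 markers was 0.0067, against 0.00 over all genes. Their summed linear signal, in which the brightest genes weigh most, lay between 23230 and 23440 in overexpression and between 23280 and 24400 in control.

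The SoxC group, Sox4, Sox11 and Sox12, is active in neural and mesenchymal progenitors of the embryo. Sox4 read 7.92, 7.91 and 7.80 in overexpression arrays, against 6.97, 7.05 and 6.94 in control arrays. It averaged 7.88 ± 0.067 in overexpression and 6.99 ± 0.057 in control (SD, n = 3 each), a rise of 0.89 ± 0.073 on the log2 scale (SE, adjusted p = 0.000139). Every overexpression array lay above every control array, with a gap far wider than the spread within either group. Sox11 read 8.10, 8.05 and 7.83 in overexpression, against 7.12, 7.19 and 7.31 in control. It rose by 0.79 ± 0.094 (adjusted p = 0.00121), again without overlap.

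Sox12, the remaining member, read 6.39, 6.60 and 6.64 in overexpression, against 6.69, 6.90 and 6.41 in control. Its arrays overlapped and its difference of -0.12 ± 0.13 did not pass (95% interval from -0.42 to 0.17, adjusted p = 0.626). The change of Sox4 minus that of Sox12 was 1.01 ± 0.15, and that of Sox11 minus Sox12 was 0.91 ± 0.24 (SE, n = 3 each). Both gave p = 0.1 in a two-sided exact permutation test of the 6 arrays, which is the smallest p that 3 against 3 allows, and adjusted p = 0.125 over 10 pairs of members compared within subfamilies. Sox4 and Sox11 differed from each other by 0.10 ± 0.087 in their change (exact permutation p = 0.5). The pairs were chosen after the values were seen.

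**Figure D1:**
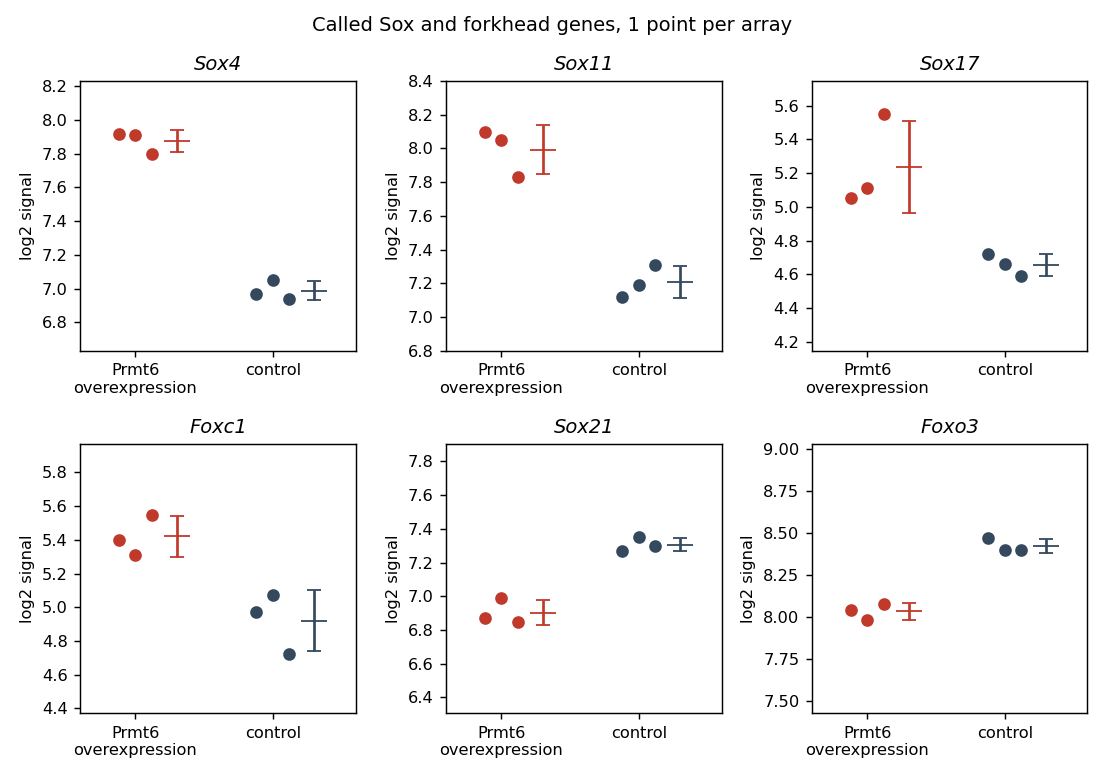
Log2 signal (y axis, each panel spanning 1.6 log2 units) of the 6 called genes in the 3 Prmt6 overexpression arrays (left) and the 3 control arrays (right); points are arrays, and the bars beside them are the mean and SD. Sox4, Sox11, Sox17 and Foxc1 lie higher in overexpression and Sox21 and Foxo3 lower, with no overlap of arrays, and Sox17 has 1 overexpression array at 5.55 above the other two at 5.05 and 5.11.

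The SoxF group, Sox7, Sox17 and Sox18, acts in endoderm and in blood vessels. Sox17, an endoderm factor, read 5.05, 5.11 and 5.55 in overexpression, against 4.72, 4.66 and 4.59 in control. It rose by 0.58 ± 0.13 (adjusted p = 0.0250), and the SD of its overexpression arrays, 0.27, was larger than the 0.065 of its control arrays, with replicate 3 above the others. The call ended without control replicate 1 (adjusted p = 0.0634), 2 (0.0718) or 3 (0.0869), and it held without any 1 overexpression array.

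Sox7, of extraembryonic endoderm, read 5.20, 5.41 and 5.41 in overexpression, against 5.41, 5.48 and 5.20 in control. Its difference was -0.023 ± 0.099 (95% interval from -0.25 to 0.20). Sox18, of vessel and lymphatic endothelium, read 5.27, 5.72 and 5.89 in overexpression, against 5.58, 5.89 and 5.86 in control, a difference of -0.15 ± 0.16 that did not pass. Arrays of both genes overlapped between the groups. The change of Sox17 exceeded that of Sox7 by 0.60 ± 0.14 and that of Sox18 by 0.73 ± 0.17. Both gave an exact permutation p of 0.1, the floor of the test, and adjusted p = 0.125 over the 10 pairs. Of 12 endothelial markers, 1 rose, 1 fell and 10 did not pass (16.7% called, against 10.3% of all genes). Flt1, a VEGF receptor, rose by 1.22 ± 0.14, and Tek, the angiopoietin receptor, fell by 0.70 on the log2 scale. The summed endothelial signal lay between 728.5 and 773.3 in overexpression and between 739.7 and 772.3 in control, so that the groups overlapped.

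Sox17 is known to act with Gata6 in extraembryonic endoderm. Of 19 measured genes on a list of extraembryonic endoderm genes, 9 rose, 0 fell and 10 did not pass, with a median of 0.26 against 0.00 over all genes. The called share of this list was 47.4%, against 10.3% of all genes. The 4 largest rises were of matrix genes, which other cells also express, namely the linker Nid1 (1.88 ± 0.073), the collagens Col4a2 (1.497 ± 0.075) and Col4a1 (1.49 ± 0.11), and the matrix protein Sparc (1.28 ± 0.073). The next were those of the endocytic receptor Cubn (0.94 ± 0.11, adjusted p = 0.000989) and the endocytic adaptor Dab2 (0.77 ± 0.083, adjusted p = 0.000651). Over 15 alternatives the Dab2 rise lay between 0.48 and 0.83, and all kept its call. The laminin chain Lamb1 (0.53 ± 0.071) and the growth factor receptor Pdgfra (0.42 ± 0.10, adjusted p = 0.0363) also rose. The Pdgfra call ended without overexpression replicate 1 (0.0694) or 2 (0.0653), without any 1 control array (0.0590 to 0.133) and with the replicate block (0.0903). Among endoderm regulators, Gata6 read 6.24, 6.42 and 6.37 in overexpression, against 5.89, 5.94 and 5.90 in control (0.43 ± 0.075, adjusted p = 0.00794), while Gata4 (0.26 ± 0.082, adjusted p = 0.0884) and Hnf4a (-0.017 ± 0.10) did not pass. Of the other list genes that did not pass, Lama1 (0.23), Lrp2 (0.19), Ttr (0.14) and Lamc1 (0.073) lay above 0. Afp (-0.040), Apoa1 (-0.050), Apob (-0.060) and Amn (-0.15) lay below it. Of 17 fibroblast markers, 8 rose and 9 did not pass, a called share of 47.1%, near that of the endoderm list. Their summed linear signal lay between 3378 and 3591 in overexpression and between 1969 and 2035 in control. Most of that sum is Fn1, the brightest of them, at 11.22 in overexpression and 10.23 in control (0.99 ± 0.072). The collagen Col1a1 rose by 1.34 ± 0.12, and the part of these markers in the endoderm genes' rise was not tested. In samples of many cells, fewer cells of a type and less RNA per cell cannot be told apart.

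FoxA factors open chromatin for endoderm genes and were read at low signal, as was Sox17. In mean signal Foxa2 lay at percentile 42.1 of all genes, Foxa1 at 34.8, Foxa3 at 33.2 and Sox17 at 32.0. Foxa2 read 5.47, 5.52 and 5.41 in overexpression, against 5.49, 5.32 and 5.45 in control (0.047 ± 0.077, 95% interval from -0.13 to 0.22). Foxa1 read 4.96, 5.11 and 5.16 in overexpression, against 5.10, 5.20 and 4.98 in control (-0.017 ± 0.088). Foxa3 lay at -0.11 ± 0.13. Arrays of all 3 overlapped between the groups, in the arrays where Sox17 and Gata6 rose.

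Among SoxB genes, Sox21, a SoxB2 repressor of neural progenitor genes, read 6.87, 6.99 and 6.85 in overexpression, against 7.27, 7.35 and 7.30 in control. It fell by 0.40 on the log2 scale, with an SE of 0.073 (adjusted p = 0.00979), and the arrays did not overlap. Sox14, the other SoxB2 gene, read 5.60, 5.80 and 5.85 in overexpression, against 5.69, 5.97 and 5.62 in control. It lay at -0.010 ± 0.11 with overlap, and the change of Sox14 minus that of Sox21 was 0.39 ± 0.12 (exact permutation p = 0.1, the floor of the test, adjusted p = 0.125). The SoxB1 genes Sox1 and Sox3 are close relatives of Sox2 and mark early neural cells. Sox1 read 6.83, 7.01 and 7.28 in overexpression, against 6.91, 7.02 and 6.97 in control (0.073 ± 0.11). Sox3 read 7.06, 7.01 and 7.02 in overexpression, against 7.16, 7.05 and 7.02 in control (-0.047 ± 0.072). Neither passed, and arrays of both overlapped. Of 9 measured markers of neural progenitors and neurons, 3 rose and 6 did not pass (33.3% called, against 10.3% of all genes). The rises were those of the adhesion molecule Ncam1 (0.71 ± 0.090), the intermediate filament Nes (0.57 ± 0.15) and the neuronal tubulin Tubb3 (0.53 ± 0.072). Zic1 (0.11), Dcx (0.087), Hes5 (0.083), Fabp7 (-0.010), Pax6 (-0.017) and Neurog2 (-0.25) did not pass. The summed signal of the 9 markers, the 3 rises included, lay between 748.6 and 795.8 in overexpression and between 603.4 and 607.7 in control. Its part in the rise of Sox11 was not tested. The Nes call ended without overexpression replicate 1 (adjusted p = 0.0839) or 2 (0.103), without any 1 control array (0.0663 to 0.146), and with the replicate block (0.0586).

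The remaining Sox genes did not pass. The SoxD genes of cartilage and oligodendrocytes, Sox5, Sox6 and Sox13, lay between -0.18 and -0.040. The SoxE genes lay between 0.080 and 0.15, with Sox9, a factor of cartilage and testis, at 0.15 ± 0.082, the neural crest factor Sox10 at 0.12 ± 0.14 and Sox8 at 0.080 ± 0.10. Of 12 cartilage matrix targets of Sox9, Sox5 and Sox6, the fibrillar collagen Col11a1 rose (0.54 ± 0.071) and 11 did not pass, with a median of -0.030. This is a called share of 8.33%, against 10.3% of all genes. Of 9 measured neural crest markers, the transcription factor Ets1 rose (1.62 ± 0.097) and 8 did not pass (11.1% called). The summed signal of the 9 lay between 481.9 and 522.8 in overexpression and between 392.7 and 435.1 in control. That sum includes Ets1, at 6.86 in overexpression and 5.24 in control. The median of the list was -0.057, with 5 of the 9 below 0. Ets1 is also made by endothelium and other cells. Sox15, which mouse ES cells express, read 6.94, 6.89 and 7.10 in overexpression, against 6.76, 7.05 and 6.99 in control (0.043 ± 0.099), and Sox30, a spermatid factor, lay at 0.20 ± 0.10.

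Of 10 measured genes on a list of Sox2 and POU factors, which pair with Sox proteins on DNA, Sox2 fell and 9 did not pass, with a median of -0.027. The called share was thus 10.0%, against 10.3% of all genes. Sox2 read 10.83, 10.83 and 10.67 in overexpression, against 11.09, 11.02 and 11.08 in control (-0.29 ± 0.076, adjusted p = 0.0485). That call ended without any 1 array (adjusted p from 0.0549 to 0.163), with arrays centred on their medians (0.111) and with the replicate block (0.116). Sox4 and Sox11 thus rose, and Sox3 and Sox15 did not pass, in arrays where the values of Sox2 were lower.

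**Figure D2:**
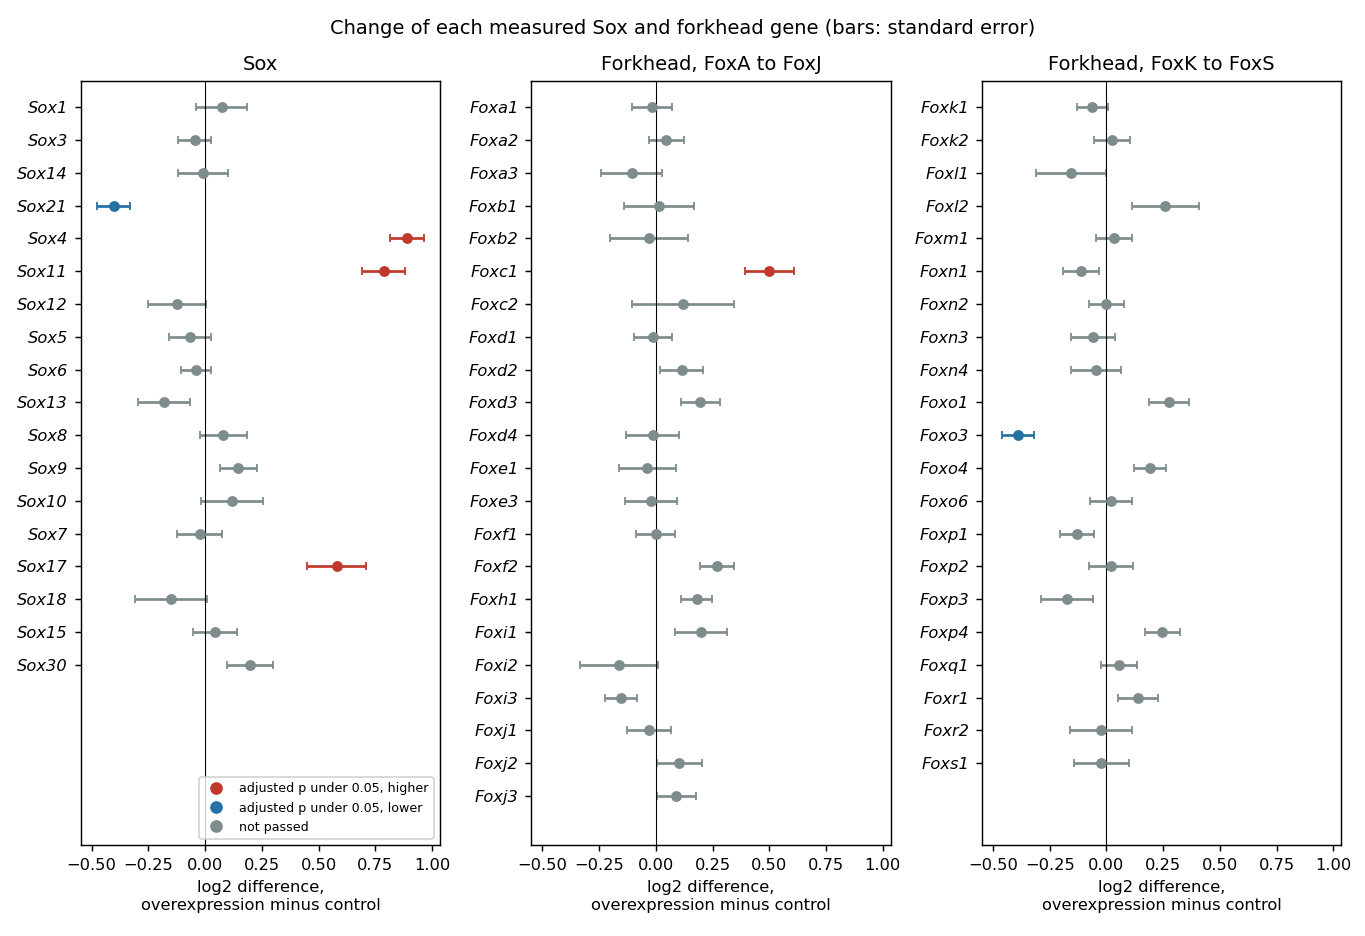
Log2 difference, overexpression minus control (x axis), of each of the 61 members, with Sox genes in the left panel and forkhead genes in the other two, ordered by subfamily; bars are standard errors. The 4 rises and 2 falls are coloured, and the 55 grey genes lie between -0.18 and 0.28.

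The FoxO genes, which carry stress and growth factor signals to metabolism and cell cycle arrest, lay on both sides of 0. Foxo3 read 8.04, 7.98 and 8.08 in overexpression, against 8.47, 8.40 and 8.40 in control. It fell by 0.39 on the log2 scale, with an SE of 0.070 (adjusted p = 0.00906), to 8.03 ± 0.050 in overexpression, against 8.42 ± 0.040 in control (SD, n = 3 each). The arrays did not overlap, and the call ended without control replicate 1 (adjusted p = 0.0516).

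Foxo1, which maintains the undifferentiated state in ES cells, read 7.90, 7.91 and 7.65 in overexpression, against 7.52, 7.55 and 7.56 in control. Its difference of 0.28 ± 0.088 did not pass (adjusted p = 0.0886), although the arrays did not overlap. It passed in 5 of 15 alternatives, which were without overexpression replicate 3 (0.0233), with array weights (0.0286), with a robust, trended prior on the variance (0.0225), and after dropping genes dimmer than the 30th percentile (0.0420) or the median (0.0203). Foxo4 read 7.19, 7.25 and 7.21 in overexpression, against 6.95, 7.04 and 7.08 in control (0.19 ± 0.071, adjusted p = 0.132), also without overlap. Foxo6 read 6.23, 5.99 and 6.10 in overexpression, against 6.22, 6.06 and 5.98 in control (0.020 ± 0.094), with overlap. The change of Foxo3 was exceeded by that of Foxo1 (by 0.67 ± 0.12), that of Foxo4 (by 0.58 ± 0.075) and that of Foxo6 (by 0.41 ± 0.076). All 3 differences gave the smallest p of the exact permutation test (0.1, adjusted p = 0.125 over the 10 pairs).

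**Figure D3:**
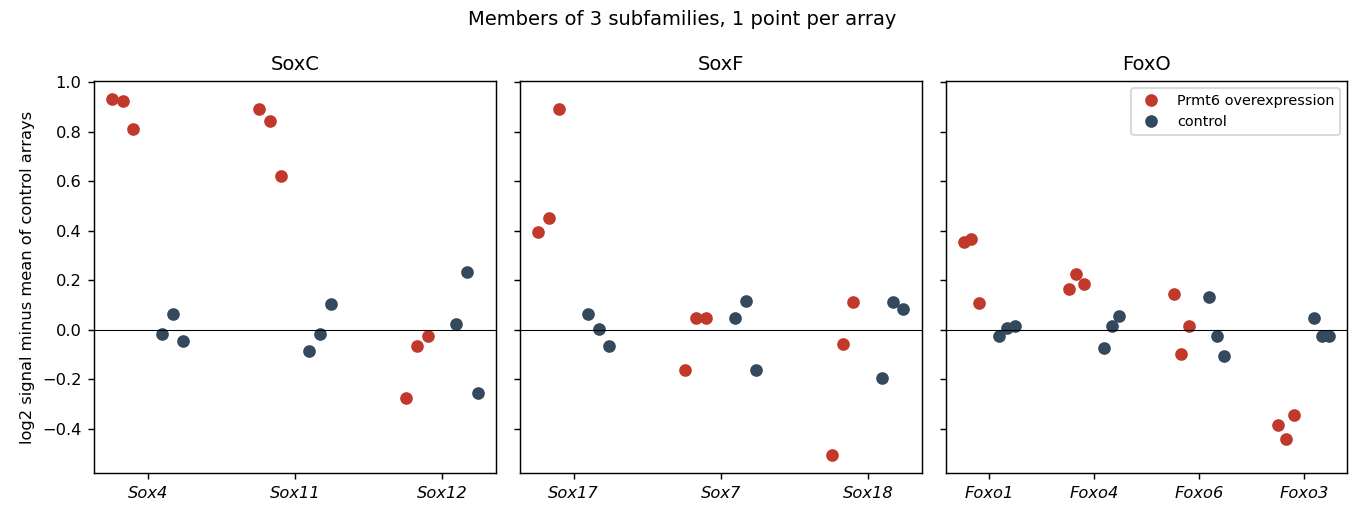
Log2 signal minus the mean of the control arrays (y axis) for the SoxC, SoxF and FoxO genes, 1 point per array, with Prmt6 overexpression left of control for each gene. Sox4 and Sox11 lie above control while Sox12 overlaps it, Sox17 lies above while Sox7 and Sox18 overlap, and Foxo3 lies below control while Foxo1 and Foxo4 lie above.

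Of 22 FOXO target genes, 1 rose, 4 fell and 17 did not pass (22.7% called, against 10.3% of all genes), with a median of 0.015. With arrays centred on their medians, 4 rose and 2 fell. The mitophagy gene Bnip3 fell by 0.49 (adjusted p = 0.00393), the stress-response gene Sesn3 by 0.41 (0.00752) and the cell cycle inhibitor Cdkn1b by 0.30 (0.0421) on the log2 scale, and the autophagy gene Map1lc3b rose by 0.40 ± 0.085 (0.0199). Leaving out any 1 array ended the call of Cdkn1b (0.0534 to 0.154), and that of Map1lc3b without any 1 control array (0.0602 to 0.0855). The falls numbered 2 without overexpression replicate 2 or 3 and without any 1 control array. Of 15 measured PI3K and AKT genes, which lie upstream of FoxO proteins, 5 rose, 0 fell and 10 did not pass (33.3% called), with a median of 0.15. The adaptor Irs1 rose by 1.53 ± 0.14 (adjusted p = 0.000293), the receptor Igf1r by 0.79 ± 0.079 (0.000417), the kinase Akt1 by 0.69 ± 0.067 (0.000386) and Akt2 by 0.29 ± 0.067 (0.0308). The size of the Irs1 rise depended on the processing, from 0.93 to 1.675 over 15 alternatives, all of which kept its call. The rises numbered 3 without overexpression replicate 2 or 3 and without any 1 control array, and the Akt2 call was among those lost. Protein phosphorylation and location were not measured by these arrays.

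Foxc1, a factor of mesenchyme, eye and vessel development, read 5.40, 5.31 and 5.55 in overexpression, against 4.97, 5.07 and 4.72 in control. It rose by 0.50 ± 0.11 (adjusted p = 0.0218) without overlap. The call ended without overexpression replicate 1 (adjusted p = 0.0571) or 3 (0.0595), without control replicate 1 (0.0602) or 3 (0.0665), and with the replicate block (0.0611). Foxf2, a mesenchymal factor, is the measured gene next to Foxc1 on chromosome 13. It read 4.92, 4.92 and 4.99 in overexpression, against 4.58, 4.74 and 4.70 in control (0.27 ± 0.074, adjusted p = 0.0562), without overlap. It passed with arrays centred on medians (0.0258), with quantile normalization (0.0189) and with array weights (0.0413). Foxq1, which lies near both, was at 0.057 ± 0.080 and did not pass. In a like cluster on chromosome 8, Foxc2 read 3.73, 4.44 and 4.57 in overexpression, against 4.11, 4.44 and 3.83 in control (0.12 ± 0.23, with overlap). The change of Foxc1 minus that of Foxc2 was 0.38 ± 0.26 (exact permutation p = 0.2). Foxf1 lay at 0.00 ± 0.087 and Foxl1 at -0.16 ± 0.15. Beside the 6 called members lay 11 nearest measured genes that were not members themselves. Of these, 0 rose and 0 fell (limma), against 10.3% of all genes called, and 11 genes are too few to set against that share. An unadjusted p under 0.05 was found in 3, a threshold that 24.5% of all genes passed. Of 103 such neighbours of the members not called, 5 rose, 0 fell and 14 had an unadjusted p under 0.05.

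Foxd3, Foxh1 and Foxm1, each with known roles in ES cells, did not pass. Foxd3, a factor mouse ES cells need for self-renewal, read 7.07, 6.83 and 7.03 in overexpression, against 6.80, 6.81 and 6.73 in control (0.20 ± 0.084, adjusted p = 0.194). Foxh1, the partner of Smad proteins in Nodal signalling, read 7.39, 7.37 and 7.33 in overexpression, against 7.13, 7.21 and 7.21 in control (0.18 ± 0.068, adjusted p = 0.144). Arrays of both lay higher in overexpression without overlap. Foxm1, the mitotic factor, read 7.70, 7.54 and 7.64 in overexpression, against 7.68, 7.56 and 7.54 in control, with overlap (0.033 ± 0.078, 95% interval from -0.15 to 0.21).

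Of 14 measured Nodal pathway genes around Foxh1, 4 rose, 1 fell and 9 did not pass, with a median of -0.050. The called share of this list was 35.7%, against 10.3% of all genes. Of the 14, 6 lay above 0 and 8 below. Arrays did not overlap in 8 (57.1%, against 29.7% of all genes), 4 higher and 4 lower. Nodal itself (-0.26 ± 0.071, adjusted p = 0.0532) and the receptor Acvr1b (-0.20 ± 0.069, 0.108) lay lower without overlap but did not pass. The Nodal inhibitor Lefty2 rose by 0.65 ± 0.11 (adjusted p = 0.00677), the T-box factor Eomes by 0.55 ± 0.086 (0.00457), the homeobox factor Mixl1 by 0.54 ± 0.086 (0.00546) and the signal transducer Smad3 by 0.52 ± 0.071 (0.00239), while the coreceptor Tdgf1 fell by 0.35 (0.0183). All 4 rises were also called when any 1 array was left out, and the Tdgf1 call ended without overexpression replicate 2 (0.0534) or any 1 control array (0.0511 to 0.0864). Of 19 measured FOXM1 target genes of mitosis, 0 rose, 3 fell and 16 did not pass, a called share of 15.8%, against 10.3% of all genes. Their median was -0.16, with 18 of 19 below 0, against 9886 of all 19938 genes. Arrays did not overlap in 13 of the 19 (68.4%, against 29.7% of all genes), all lower. Bub1 (-0.36 ± 0.075), Cenpf (-0.35 ± 0.088) and Cenpe (-0.35 ± 0.088), genes of kinetochores, were the falls, and in place of these 3 calls there were 6 without overexpression replicate 1 and 0 without any 1 other array. Of 15 measured FOXJ1 target genes of motile cilia, 0 passed (limma), against 10.3% of all genes. An unadjusted p under 0.05 was found in 2 of the 15 (13.3%, against 24.5% of all genes), and their median was -0.070. Rsph9, a radial spoke gene, had the smallest p among them (0.19, adjusted p = 0.164). Foxj1 itself, the regulator of motile cilia, lay at -0.030 ± 0.096.

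**Figure D4:**
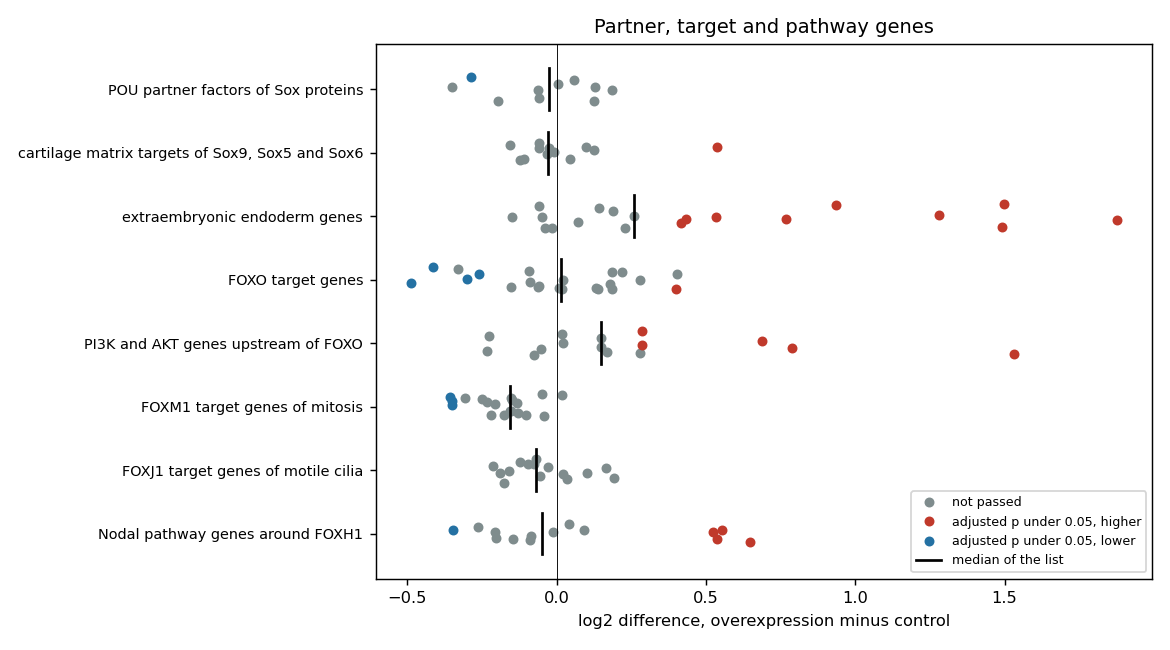
Log2 difference, overexpression minus control (x axis), of each measured gene on the 8 lists of partner, target and pathway genes; colours mark genes that passed and black bars the list medians. The endoderm list has its median at 0.26 and rises up to 1.88, the FOXM1 targets have a median of -0.16, and the motile cilia genes hold no call.

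The other forkhead genes did not pass. Of the FoxP genes, Foxp4 read 7.06, 6.98 and 6.92 in overexpression, against 6.64, 6.80 and 6.78 in control (0.25 ± 0.078, adjusted p = 0.0895), without overlap. It passed in 3 of 15 alternatives, with a robust, trended prior on the variance (0.0450) and after dropping genes dimmer than the 30th percentile (0.0425) or the median (0.0210). Foxp1, which has an ES cell splice form, lay at -0.13 ± 0.076, Foxp2, a forebrain factor, at 0.020 ± 0.099 and Foxp3, the factor of regulatory T cells, at -0.17 ± 0.12. Foxi3, an ectodermal placode factor, read 6.90, 6.94 and 7.02 in overexpression, against 7.07, 7.11 and 7.14 in control (-0.15 ± 0.070, adjusted p = 0.227), lower without overlap. It was the 1 member outside the calls whose arrays lay lower without overlap. Foxi1 and Foxi2, of ionocytes and placodes, lay at 0.20 ± 0.12 and -0.16 ± 0.17, and Foxl2, the ovary factor, at 0.26 ± 0.15. FoxN genes lay between -0.11 (Foxn1, the thymus factor) and 0.00 (Foxn2), and FoxK genes between -0.063 and 0.023. Foxj2 and Foxj3 lay at 0.10 and 0.090. The FoxB, FoxE and FoxR genes and Foxs1 lay between -0.037 (Foxe1, of thyroid) and 0.14 (Foxr1), and Foxd1, Foxd2 and Foxd4 between -0.013 and 0.11.

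Over all members the median change was 0.00, as over all genes, with 30 above 0, 29 below and 2 at 0. Changes within 0.2 of 0 on the log2 scale were found in 50 of 61 members (82.0%), against 73.2% of all genes. Arrays of the groups did not overlap in 13 of 61 members (21.3%), 10 higher and 3 lower, against 29.7% of all genes. At an unadjusted p under 0.05 there were 12 members (19.7%), against 24.5% of all genes. Members lay on both sides of the median gene in mean signal, 30 at or above it and 31 under it. Calls numbered 4 of the 30 brighter members (13.3%, against 16.1% of all such genes) and 2 of the 31 dimmer ones (6.45%, against 4.47%). Sox17 and Foxc1 were the 2 dimmer ones. Detection calls were not used here, so that for the dim members signal and background are not separated.

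The dim members varied with the array. Of the 31 under the median gene, overexpression replicate 3 gave the highest of the 3 overexpression values in 26 (83.9%) and replicate 1 the lowest in 22 (71.0%). Over all genes under the median these shares were 52.8% and 44.6%. Sox17 and Foxc1, the called genes among them, also had their highest value in replicate 3. Without that array the Sox17 call held and the Foxc1 call ended, as given above.

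**Figure D5:**
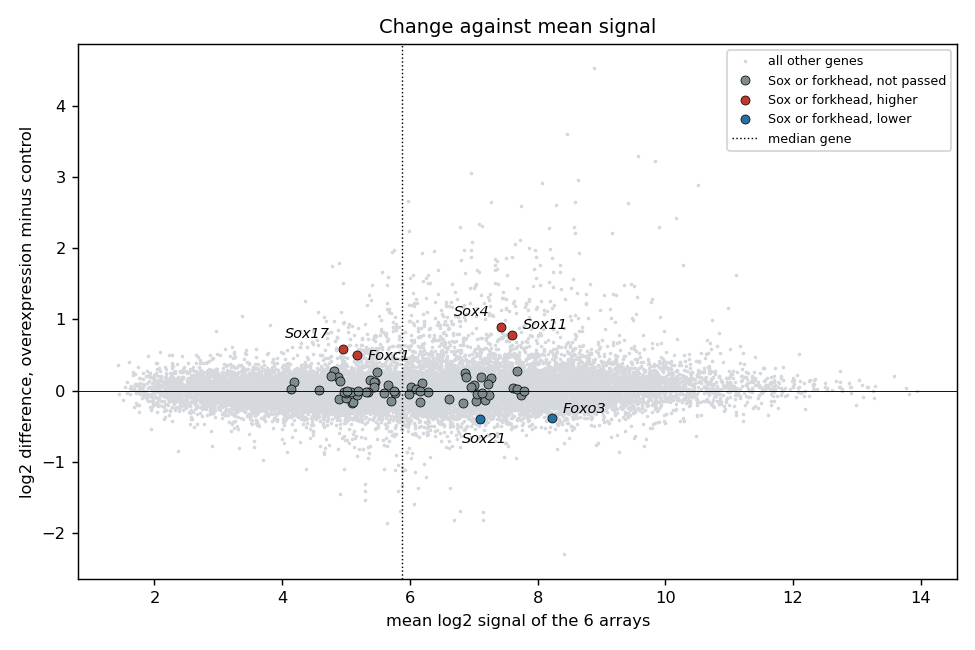
Log2 difference, overexpression minus control (y axis), against mean log2 signal of the 6 arrays (x axis) for 19938 genes, with the 61 members as large points and the median gene as a dotted line. Sox4, Sox11, Sox21 and Foxo3 lie right of the line and Sox17 and Foxc1 left of it, and the members span from -0.40 to 0.89 while all genes span from -2.30 to 4.53.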

How the data were processed

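The deposited values are log2 signals from RMA, per the submitters' processing notes, rounded to 2 decimals. No source used here gives the RMA software or version. There were 35556 probe sets on 6 arrays, with 0 values missing. Symbols are those of the 2016 platform annotation. A gene (19938 in all) was represented by the brightest on average of its probe sets with 1 symbol, and 2 members, Foxf1 and Foxn3, had more than 1.

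Overexpression was compared with control by limma 3.58.1 in R 4.3.3 (lmFit, eBayes, two-sided, no covariates), with Benjamini-Hochberg adjustment over all genes and a threshold of 0.05, and was tested on simulated data. Differences are overexpression minus control. Figures were drawn with matplotlib 3.10.9. The members, lists and within-subfamily pairs were chosen with earlier results of these data known, so their counts are descriptions. Members called, those of the same subfamilies, the 6 next by adjusted p and 12 fixed genes were given in every array, and up to 4 called genes per list were named. Gata6, Gata4, Hnf4a, Cubn, Dab2, Lamb1, Pdgfra and Tdgf1 (on the Nodal list) were added after their values were seen. So were the further list and marker genes named that did not pass, Rsph9 aside. A planned comparison of protein domains was not made, because no protein sequences were used here. Correlations of same-numbered arrays' deviations were -0.019, -0.0158 and -0.117, so the numbers were not taken as pairs.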

Additional observations from a re-analysis of the deposited data

How the results depend on the processing

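Among 6 called members, Sox4, Sox11 and Sox21 passed in all 15 refits that tested them (adjusted p up to 0.00153, 0.00841 and 0.0484), and over all 6 members 79 of 88 refits kept the call and 0 reversed. Leaving out 1 array gave 2 to 4 member rises and 1 to 2 falls. An adjusted p of 0.01 left 2 rises, and a 1.5-fold minimum left 2 rises and 0 falls, with Sox21 and Foxo3 under that minimum. The replicate block gave 3 rises and 2 falls, and centring or quantile normalization gave 5 rises. With genes under the median left out, 6 rises were called among 30 members tested, Foxh1 (adjusted p = 0.0449) and Foxo4 (0.0390) among them. For Prmt6 the adjusted p was 0.0108 to 0.119 when 1 array was left out and 0.0615 with the replicate block. The cause of each lost call was not tested. The median member change lay between -0.042 and 0.062 under all alternatives. FOXM1 target falls numbered 8 with quantile normalization and 1 with centred arrays. Over all genes, falls numbered 647 in the reported comparison, 280 to 763 when 1 array was left out and 1115 with a trended and robust variance prior.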
